A study of Mus musculus with 6 samples.

Results

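Accessible chromatin at the protein kinase C genes was compared between the posterior second heart field (pSHF) and the atria (HT) of mouse embryos. The 8 genes were *Prkca*, *Prkcb*, *Prkcd*, *Prkce*, *Prkch*, *Prkci*, *Prkcq* and *Prkcz*. A peak was taken as theirs if its nearest protein-coding gene body was one of the 8, within 100 kb. By this rule 62 of the 40390 pSHF peaks and 88 of the 45418 HT peaks assigned to any of 21631 protein-coding genes belonged to the family. The family was chosen on measured values, because *Prkca* and *Prkce* carry many HT peaks that the pSHF list lacks. The excess at those genes is therefore given as a description, and nothing is tested with it.

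Protein kinase C enzymes are serine/threonine kinases that relay signals from receptors that activate phospholipase C. Classical isoforms (*Prkca*, *Prkcb*) respond to calcium and diacylglycerol, a second class (*Prkcd*, *Prkce*, *Prkch*, *Prkcq*; calcium-independent) to diacylglycerol alone, and atypical isoforms (*Prkci*, *Prkcz*) to neither, acting largely through protein partners. In heart muscle of the mouse, PKCα is known as a regulator of contractility and PKCε as a kinase of the protective response to ischaemia, while PKCι acts in epithelial polarity in the embryo.

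The assay was ATAC-seq, in which a transposase cuts accessible DNA and leaves sequencing adapters there. The pSHF is the mesodermal progenitor field behind the heart that adds cells to its venous pole, and the atria are already part of the beating heart. Tissue was pooled from wild-type CD1 (outbred) embryos at embryonic day 10.0, giving 3 samples each of pSHF and HT, with no treatment and no engineered allele. Each tissue is represented by 1 deposited peak list without values per sample, so there is no SD, test or p-value below, and the spread between replicates is unknown for every difference.

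The pSHF list held 44018 peaks and the HT list 49267, called at a q threshold of 0.05. Strength is given as the fold enrichment of a summit over background, the authors' value, and as the number of reads over the summit (pileup), recovered from fold and p. The lists were of like depth, with a genome background of 0.857 reads per position in pSHF and 0.824 in HT and a median summit pileup of 13 and 14. A peak was called shared where 1 bp or more of it was also in a peak of the other tissue, and restricted where none was. Restricted means not called in the other list, which does not make the site closed there. In bulk tissue, fewer open cells and less opening per cell cannot be told apart. Peaks summed over marker genes followed the labels. The 4 pSHF markers had 32 peaks in the pSHF list and 13 in the HT list, and 6 atrial markers had 4 and 27. Among the pSHF markers, *Gas1* (14 and 3) and *Foxf1* (8 and 2) differed most, while *Osr1* (4 and 3) and *Isl1* (6 and 5) hardly differed. Erythroid markers (4 genes) had 3 pSHF and 14 HT peaks and endothelial markers (3 genes) had 12 and 26, whereas endoderm markers (3 genes) had 23 and 16. The part that blood and vessel cells have in the HT-restricted peaks given below was not tested.

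Over the family, 15 of 62 pSHF peaks were restricted, or 24.2% (95% Clopper-Pearson interval 14.2% to 36.7%), beside 31.8% of pSHF peaks over all genes. In the HT list 47 of 88 were restricted, or 53.4% (42.5% to 64.1%), beside 43.7% over all genes. Intervals here and below cover counting error only. Of the 62 restricted peaks of both lists, 24.2% came from pSHF, beside 39.3% over all genes. This balance rested on *Prkca* and *Prkce*. Without them, 11 of 39 pSHF peaks (28.2%) and 15 of 39 HT peaks (38.5%) were restricted, and the pSHF share of restricted peaks was 42.3% (23.4% to 63.1%), near the background. By gene, 0 of 8 had more pSHF-restricted peaks, 5 had more HT-restricted peaks and 3 had equal numbers. Over all 10956 genes with a restricted peak, 29.5% had more in pSHF and 57.9% had more in HT.

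**Figure D1:**
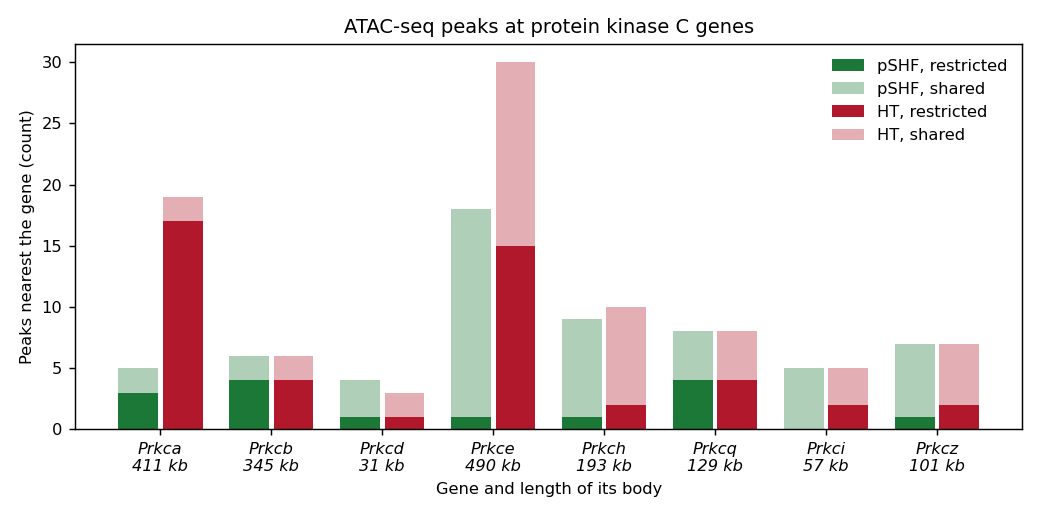
Number of peaks nearest each protein kinase C gene in the pSHF and HT lists, split into restricted and shared peaks. *Prkca* (5 pSHF and 19 HT peaks) and *Prkce* (18 and 30) differ between the lists, and each of the other 6 genes differs by at most 1 peak.

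Most restricted peaks of the family lay inside gene bodies and away from gene ends. Inside here means within the gene and more than 1 kb from both of its ends. That held for 11 of 15 pSHF-restricted peaks (73.3%, 44.9% to 92.2%) and 40 of 47 HT-restricted peaks (85.1%, 71.7% to 93.8%), beside 52.0% and 56.4% of restricted peaks over all genes. Without *Prkca* and *Prkce*, the genes the family was chosen for, it held for 7 of 11 pSHF-restricted peaks (63.6%, 30.8% to 89.1%) and 8 of 15 HT-restricted peaks (53.3%, 26.6% to 78.7%), the HT share being near that of all genes. Within 1 kb of a gene end lay 1 pSHF-restricted and 0 HT-restricted peaks, against 14 pSHF and 9 HT shared peaks. Over all genes, too, peaks there were mostly shared, with 1729 pSHF-restricted and 1957 HT-restricted against 13719 and 12373 shared. The gene table does not separate exons from introns, and *Prkca* and *Prkce*, at 411 and 490 kb, are the longest of the family. Per 100 kb of gene body, the family had 0.683 pSHF-restricted and 2.28 HT-restricted peaks, beside 0.763 and 1.21 over all genes. In HT this rested on *Prkca* (4.14) and *Prkce* (3.06), with 0 to 1.97 in the other 6 genes.

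Restricted peaks of the family had folds of 3.23 to 6.58 in pSHF and 3.07 to 11.6 in HT. At or above the median fold of their own list were 9 of 15 pSHF-restricted peaks (60%) and 19 of 47 HT-restricted peaks (40.4%), beside 27.3% and 29.3% over all genes. Without *Prkca* and *Prkce* the counts were 7 of 11 (63.6%) in pSHF and 4 of 15 (26.7%) in HT, so the HT excess over the background came from those genes. The median fold of restricted peaks was 4.85 in pSHF and 4.80 in HT, beside 4.3 and 4.81 over all genes. That of shared peaks was 4.84 and 6.03, beside 5.6 and 7.1 over all genes.

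*Prkca*, which encodes the classical isoform PKCα, spans chr11:107933387-108343888 (mm10, as for all coordinates here; minus strand, 411 kb). It had 5 peaks in pSHF, 3 of them restricted, and 19 in HT, 17 of them restricted. All 17 HT-restricted peaks lay inside the gene, 7.28 to 358 kb downstream of its start. In the 100 kb stretch richest in them, picked for that, 9 of these peaks stood between 36.5 and 135 kb. The strongest, chr11:108263848-108264193, was 79.8 kb from the start, with a fold of 11.6, a −log10 q of 30.5 and a pileup of 40 (exact Poisson 95% interval 28.6 to 54.5). The next, chr11:108293903-108294140, lay 49.9 kb from the start with a fold of 10.4 and a pileup of 23. The weakest had a fold of 3.84, and the median was 4.93. Thus the HT-restricted set ran from strong sites to sites near the calling threshold, with 8 of 17 at a fold of 5 or more.

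The 3 pSHF-restricted peaks of *Prkca* were also inside the gene and were scattered among the HT ones, 63.8, 173 and 208 kb from the start. The strongest, chr11:108280025-108280226, had a fold of 5.96 and a pileup of 11 (5.49 to 19.7). The weakest had a fold of 3.23 at a pileup of 5, the lowest pileup in either list. Both shared peaks were stronger in HT. At the gene start the fold was 6.15 in pSHF and 7.08 in HT, with pileups of 22 and 31. The other, 24.5 kb downstream, had a fold of 3.77 and a pileup of 6 (2.20 to 13.1) in pSHF, against 13.1 and a pileup of 38 (26.9 to 52.2) in HT, a log2 ratio of −1.79 pSHF over HT. The start was thus open in both lists at like strength, while that internal site differed beyond counting error.

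*Prkcb*, also a classical gene and one with a known role in B-cell signalling, spans chr7:122289104-122634402 (plus strand, 345 kb). It is of similar length to *Prkca* but had 6 peaks in each list, 4 of them restricted on each side. The pSHF-restricted peaks lay 0.557, 140, 182 and 221 kb from the gene start with folds of 4.41, 5.92, 5.13 and 4.85. The HT-restricted peaks lay 92.5, 116, 123 and 287 kb from it with folds of 3.43, 5.66, 4.39 and 3.84. The restricted peaks of the gene were thus equal in number in both tissues, and by definition they do not overlap. With peaks within 500 bp counted as shared, they numbered 3 in pSHF and 4 in HT. The start peak had a fold of 8.21 in pSHF and 9.90 in HT, and the shared site at 171 kb 6.14 and 6.03.

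*Prkce*, which encodes the calcium-independent isoform PKCε, spans chr17:86167785-86657919 (490 kb). Its strand was not in the promoter table, so positions are given from the lower-coordinate end. It had 18 peaks in pSHF, 1 of them restricted, and 30 in HT, 15 of them restricted. All 15 HT-restricted peaks lay inside the gene, from 40.5 to 443 kb. In the 100 kb stretch richest in them, picked in the same way, 9 of these peaks fell between 216 and 301 kb. The strongest was chr17:86422104-86422370 at 254 kb, with a fold of 9.20, a −log10 q of 14.9 and a pileup of 20 (12.2 to 30.9). It was followed by chr17:86610434-86610815 at 443 kb, with a fold of 7.41 and a pileup of 16. The median over the 15 was 5.27, higher than the 4.93 at *Prkca*, but its strongest sites were lower. The pSHF-restricted peak, chr17:86536655-86536772 at 369 kb, had a fold of 4.22 and a pileup of 8.

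**Figure D2:**
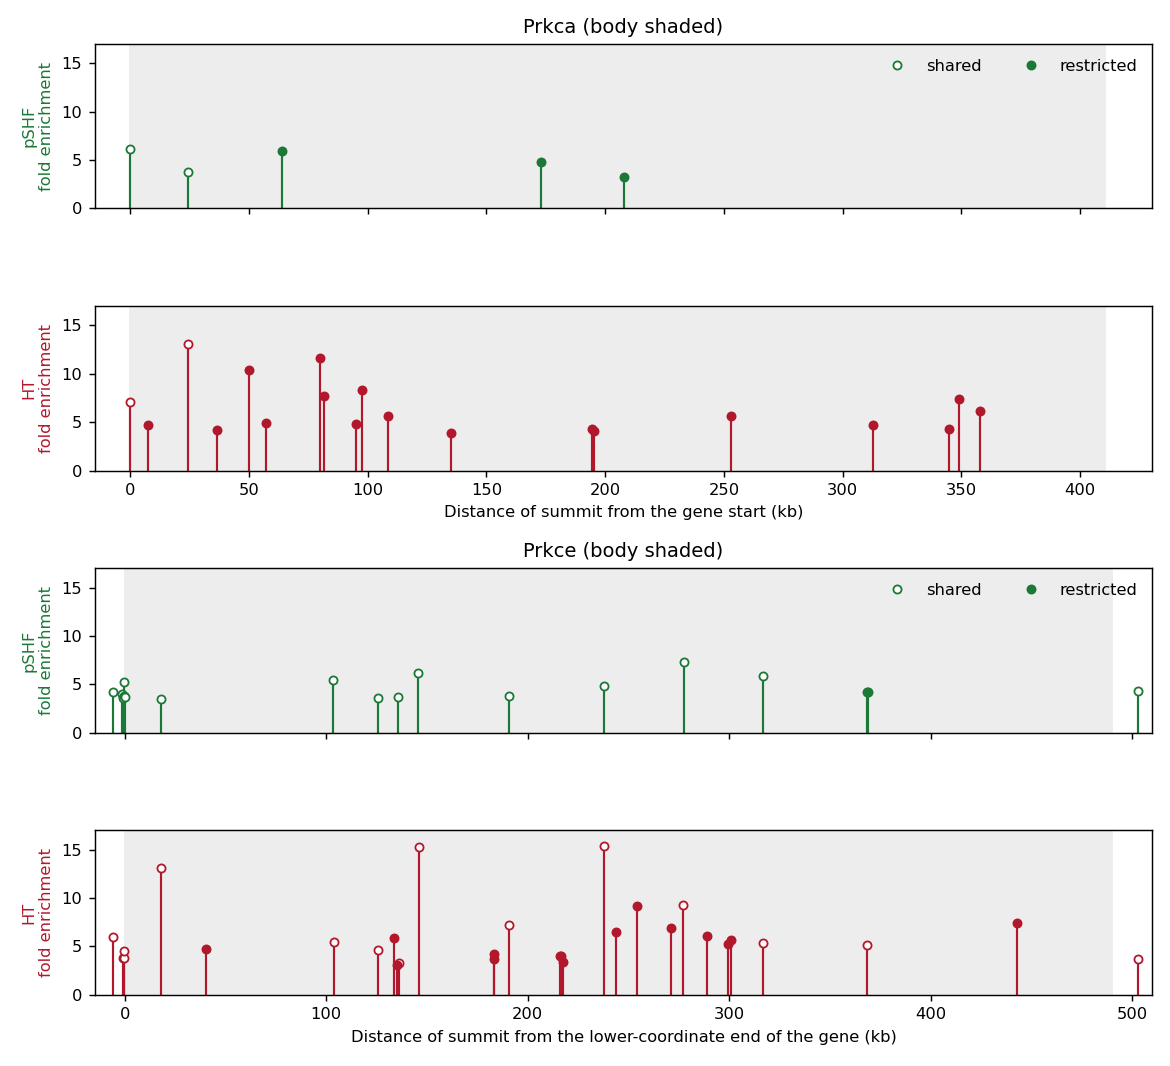
Fold enrichment (vertical axis) of each pSHF and HT peak along *Prkca* and *Prkce*, by distance in kb from the gene start (*Prkca*) or the lower-coordinate end (*Prkce*). Filled points are restricted and open points shared peaks, and the 17 and 15 HT-restricted peaks lie along the gene bodies. The 100 kb stretch picked as richest in them holds 9 in *Prkca* (36.5 to 135 kb) and 9 in *Prkce* (216 to 301 kb).

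Unlike *Prkca*, *Prkce* also had many sites open in both tissues. Its 15 pairs of shared peaks had a median log2 fold ratio of −0.30, pSHF over HT, ranging from −1.93 to 0.48. Of these pairs, 6 were higher and 9 lower in pSHF, beside 76.5% lower and a median of −0.29 over all paired peaks. The site at 17.9 kb had a fold of 3.45 in pSHF and 13.1 in HT, with pileups of 6 and 36. The site at 146 kb had folds of 6.13 and 15.3 and pileups of 12 and 47, and the site at 238 kb had folds of 4.84 and 15.4 and pileups of 8 and 45. These internal sites had the highest folds of the *Prkce* peaks in HT, while in pSHF the site at 17.9 kb was near the threshold and the other 2 were not. The peak 641 bp outside the lower end went the other way, with a fold of 5.26 in pSHF and 3.76 in HT.

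Counts inside a gene scale with its length, so genes from 20% shorter to 25% longer are given as background. Around the length of *Prkca* there were 262 such genes, with a median of 3 pSHF-restricted and 4 HT-restricted peaks, and 2 of them had 17 or more HT-restricted peaks. Its 3 pSHF-restricted peaks were the median of that group. Around the length of *Prkce* there were 218, with a median of 3 pSHF-restricted and 4.5 HT-restricted peaks, and 3 of them had 15 or more in HT. In pSHF, 192 of the 218 had at least the 1 restricted peak that *Prkce* had.

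*Prkcd*, whose product PKCδ is known for roles in apoptosis, is the shortest of the 8 genes (chr14:30595353-30626414, minus strand, 31.1 kb). It had 4 pSHF and 3 HT peaks, with 1 restricted peak in each list. The start peak had a fold of 6.04 in pSHF and 7.98 in HT, and a shared site 0.969 kb downstream 3.43 and 5.78. Both restricted peaks lay outside the gene, at 3.71 kb in pSHF (fold 3.61) and 8.35 kb in HT (fold 3.64), and were weak.

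*Prkch* encodes PKCη, known from epithelia such as epidermis, and spans chr12:73584796-73778185 (193 kb, strand not in the promoter table). It had 9 pSHF peaks, 1 of them restricted, and 10 HT peaks, 2 of them restricted. Of its 8 shared pairs, 2 were higher and 6 lower in pSHF, with a median log2 ratio of −0.26. Over all paired peaks, 76.5% were lower and the median was −0.29. The site at 23.3 kb from the lower end, chr12:73607989-73608424 in the pSHF list, had a fold of 10.1 and a pileup of 27 in pSHF, against 5.09 and a pileup of 10 in HT. That log2 ratio of 0.99 was the highest of the family's pairs, and the fold of 10.1 was the highest of its pSHF peaks. The pSHF-restricted peak lay at 94.8 kb with a fold of 4.94. An HT-restricted peak of 597 bp, chr12:73781344-73781940, lay 3.16 kb outside the gene with a fold of 8.11, and the other lay at 180 kb with a fold of 5.70.

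*Prkcq* encodes PKCθ, known from T-cell receptor signalling and skeletal muscle, and spans chr2:11171905-11301226 (plus strand, 129 kb). Each list had 8 peaks, 4 of them restricted, but their places differed. Inside the gene were 2 pSHF-restricted peaks, at 23.0 kb (fold 5.39) and 123 kb (fold 5.27), and 0 HT-restricted ones. All 4 HT-restricted peaks lay outside, the strongest at chr2:11336405-11336722, 35.2 kb beyond the gene, with a fold of 8.28 and a pileup of 22. The other pSHF-restricted peaks lay 30.4 and 64.4 kb outside, with folds of 3.72 and 3.77. At the gene start the fold was 7.34 in pSHF and 8.28 in HT. The 100 kb limit mattered for this gene alone: 2 more pSHF-restricted peaks had it as their nearest gene, at 112 kb (fold 3.77) and 250 kb (fold 4.85), against 0 in HT, while the farthest family peaks within the limit lay at 71.3 kb in pSHF and 71.4 kb in HT.

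*Prkci*, the atypical polarity kinase, spans chr3:30995742-31052740 (plus strand, 57.0 kb). It had 5 pSHF peaks, 0 of them restricted, and 5 HT peaks, 2 of them restricted. Its start carried the strongest promoter peak of the family, with a fold of 9.0 and a pileup of 34 in pSHF, against 12.4 and a pileup of 53 in HT. The site at 27.2 kb had folds of 5.97 and 7.28, and a site beyond the gene at 61.7 kb had folds of 6.34 and 10.3. The HT-restricted peaks lay at 7.62 kb (fold 4.39) and 60.7 kb (fold 4.85), beside a median of 4.81 for HT-restricted peaks over all genes.

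*Prkcz* spans chr4:155260118-155361428 (minus strand, 101 kb) and had 7 peaks in each list, 1 restricted in pSHF and 2 in HT. The pSHF-restricted peak, chr4:155267952-155268199 at 93.4 kb from the start, had a fold of 6.58, a −log10 q of 9.59 and a pileup of 18, and was the strongest pSHF-restricted peak of the family. An HT-restricted peak with a fold of 3.64 lay at 92.8 kb, near it but without overlap, and the other lay at 42.9 kb with a fold of 5.31. At the gene start the fold was 7.16 in pSHF and 10.3 in HT. Shared sites at 40.7 and 53.1 kb had folds of 4.75 and 5.73 in pSHF, against 3.98 and 8.72 in HT.

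**Figure D3:**
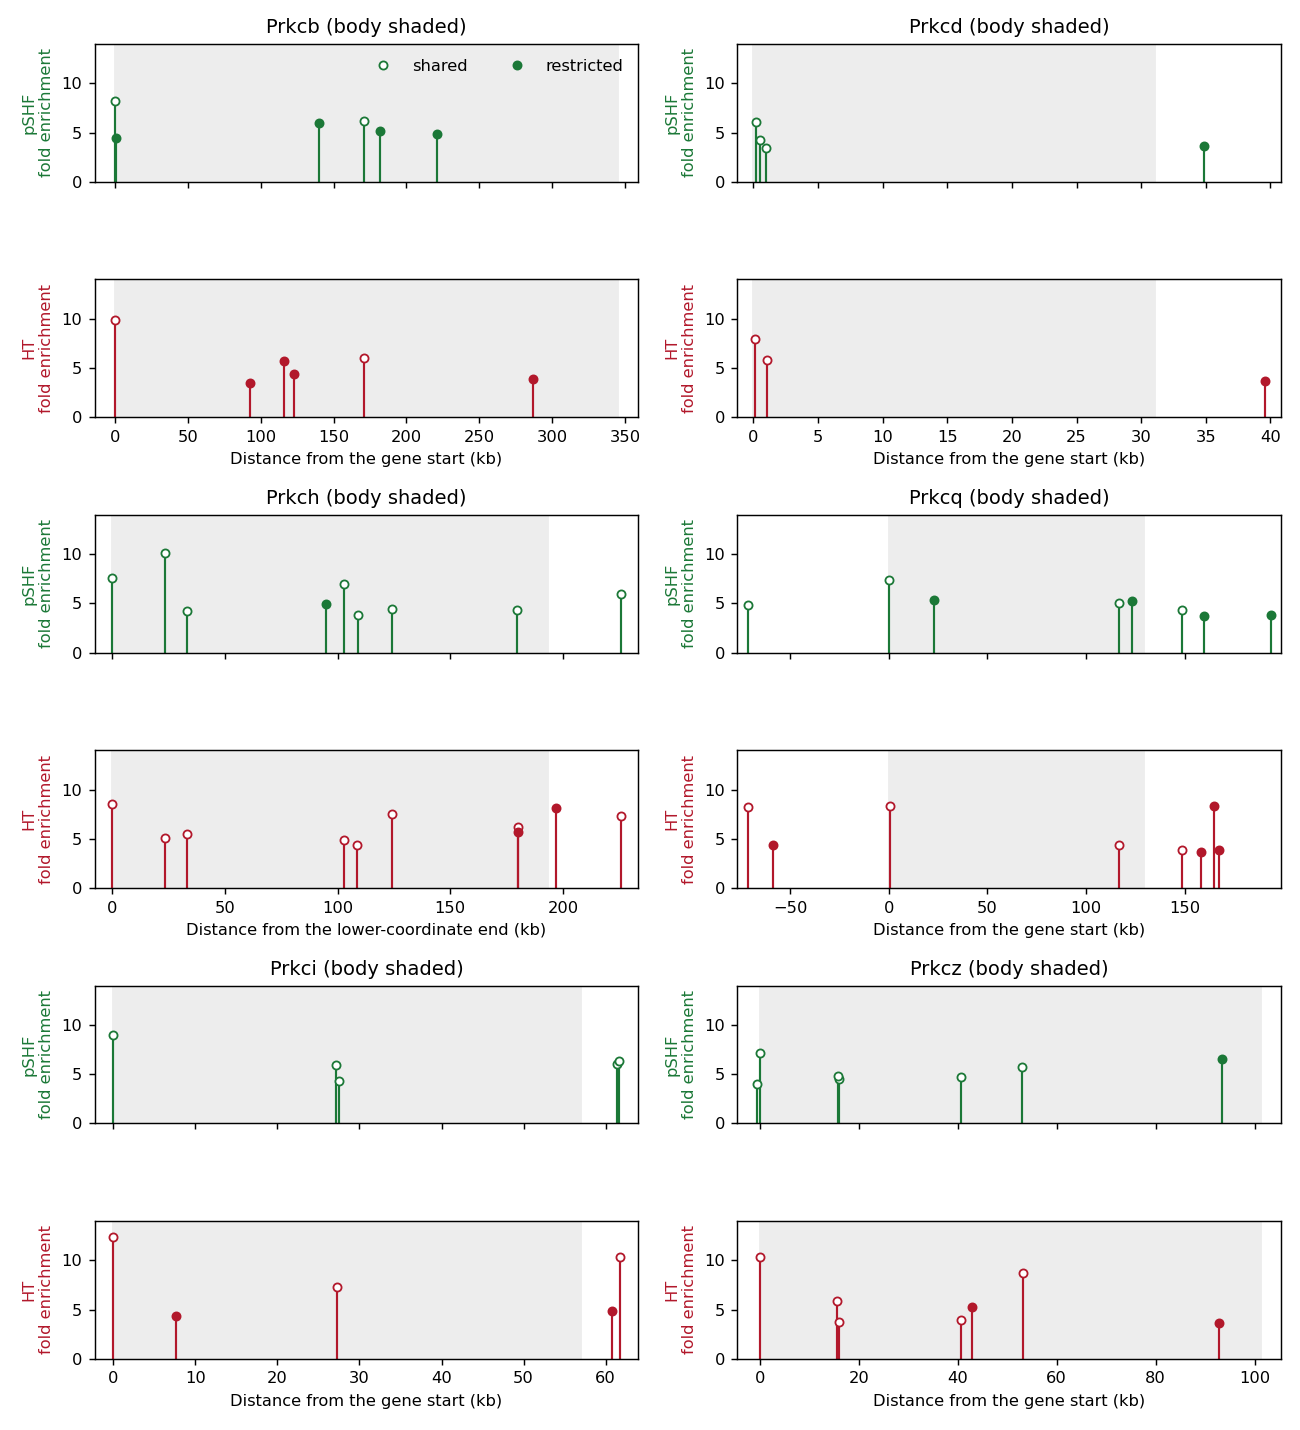
Fold enrichment (vertical axis) of each pSHF and HT peak along the other 6 protein kinase C genes, by distance in kb from the gene start, or from the lower-coordinate end for *Prkch*. Filled points are restricted and open points shared peaks. *Prkcq* has 2 pSHF-restricted and 0 HT-restricted peaks inside the gene, and the pSHF site of *Prkch* at 23.3 kb reaches a fold of 10.1.

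In the mouse, *Prkcz* has, besides its start, an internal promoter that in brain drives a shorter transcript for the catalytic fragment PKMζ. RefSeq promoters (GRCm38.p6) matched 6 of the 8 genes, with 9 starts, and listed 3 for *Prkcz*. The 250 bases before each of those starts are printed with those of *Prkca*, to show the sequence at a start open in both tissues beside internal starts that differ in whether a peak covers them. All are on the minus strand, read 5′ to 3′, and capitals mark CpG dinucleotides. They lie at chr11:108343889-108344138, chr4:155361429-155361678, chr4:155345790-155346039 and chr4:155344750-155344999, in the order printed.
Prkca start: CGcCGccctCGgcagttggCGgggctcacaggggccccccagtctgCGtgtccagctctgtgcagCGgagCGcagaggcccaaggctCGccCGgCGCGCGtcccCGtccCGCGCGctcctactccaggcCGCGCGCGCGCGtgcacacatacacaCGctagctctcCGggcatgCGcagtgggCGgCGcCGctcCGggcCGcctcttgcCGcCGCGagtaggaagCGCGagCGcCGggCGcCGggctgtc
Prkcz start: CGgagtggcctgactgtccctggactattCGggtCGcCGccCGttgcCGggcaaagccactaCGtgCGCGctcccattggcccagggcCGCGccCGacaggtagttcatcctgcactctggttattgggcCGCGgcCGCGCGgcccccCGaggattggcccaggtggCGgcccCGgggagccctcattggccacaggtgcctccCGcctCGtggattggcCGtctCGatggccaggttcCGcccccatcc
Prkcz internal start at 15.6 kb: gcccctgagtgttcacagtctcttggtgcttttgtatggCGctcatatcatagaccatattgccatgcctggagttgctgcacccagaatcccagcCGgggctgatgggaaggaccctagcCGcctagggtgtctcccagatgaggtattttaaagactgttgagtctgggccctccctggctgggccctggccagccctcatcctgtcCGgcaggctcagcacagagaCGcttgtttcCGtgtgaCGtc
Prkcz internal start at 16.7 kb: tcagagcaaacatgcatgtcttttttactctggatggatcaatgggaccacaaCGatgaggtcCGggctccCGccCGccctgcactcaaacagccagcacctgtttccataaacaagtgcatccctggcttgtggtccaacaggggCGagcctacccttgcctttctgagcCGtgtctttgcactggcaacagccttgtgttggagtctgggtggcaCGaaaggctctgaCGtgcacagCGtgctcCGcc

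The *Prkca* window had a GC content of 76.8% with 39 CpG, and the *Prkcz* start 70.8% with 25, beside medians of 52.4% and 6 over 32851 promoters. Both start windows lay in a peak of each list. The internal window at 15.6 kb had 58.0% GC and 7 CpG, and shared peaks covered 89 of its bases in pSHF (fold 4.85) and 58 in HT (fold 5.88). The internal window at 16.7 kb had 56.8% GC and 10 CpG, and a peak of neither list reached it. The table does not say which internal start belongs to PKMζ. An internal start of *Prkcd*, 16.1 kb into the gene, had 50.8% GC and 1 CpG, and lay in a peak of neither list.

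In the 9 windows, 7 motifs of cardiac factors and of the Hedgehog effector GLI were searched on both strands. The GATA motif, spelled AGATAA and also TGATAA, had 0 matches, beside 16.6% of all promoters. The T-box motif AGGTGT had 0, beside 11.8%. The NKX2 motif TNAAGTG had 0, beside 10.1%, and the MEF2 motif AAAAATA had 0, beside 7.09%. TEAD (GGAATG) matched 2 windows, 44 bases before the start of *Prkci* and 100 before the internal start of *Prkcd*, beside 12.6% of promoters. The E-box CAGATG matched 1 window, 113 bases before the *Prkcz* start at 15.6 kb, beside 14.4%. The GLI core CCACCC matched 2, 116 bases before the start of *Prkcq* and 41 before the *Prkcz* start at 16.7 kb, beside 28.1%. A match is a run of letters and not a binding site.

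Across the family, 41 pairs of shared peaks could be set against each other. Of these, 28 (68.3%) were lower in pSHF and 13 higher, beside 76.5% lower over all paired peaks. The median log2 fold ratio, pSHF over HT, was −0.29 for the family and −0.29 over all genes, so the family's shared sites had the general offset between the lists. The counting intervals of the pileups did not overlap in 4 pairs, the *Prkca* site at 24.5 kb and the *Prkce* sites at 17.9, 146 and 238 kb, all lower in pSHF. There were 0 such pairs higher in pSHF. There the *Prkch* site at 23.3 kb came nearest, its intervals overlapping narrowly. Its pileup was 27 (17.8 to 39.3) in pSHF and 10 (4.8 to 18.4) in HT. The same count was not made over the paired peaks of all genes. Whether 4 of 41, or their direction, is unusual is therefore not known. The 4 sites without overlap belong to the genes with the most HT-restricted peaks. Both measures come from the same lists, so they are not independent.

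**Figure D4:**
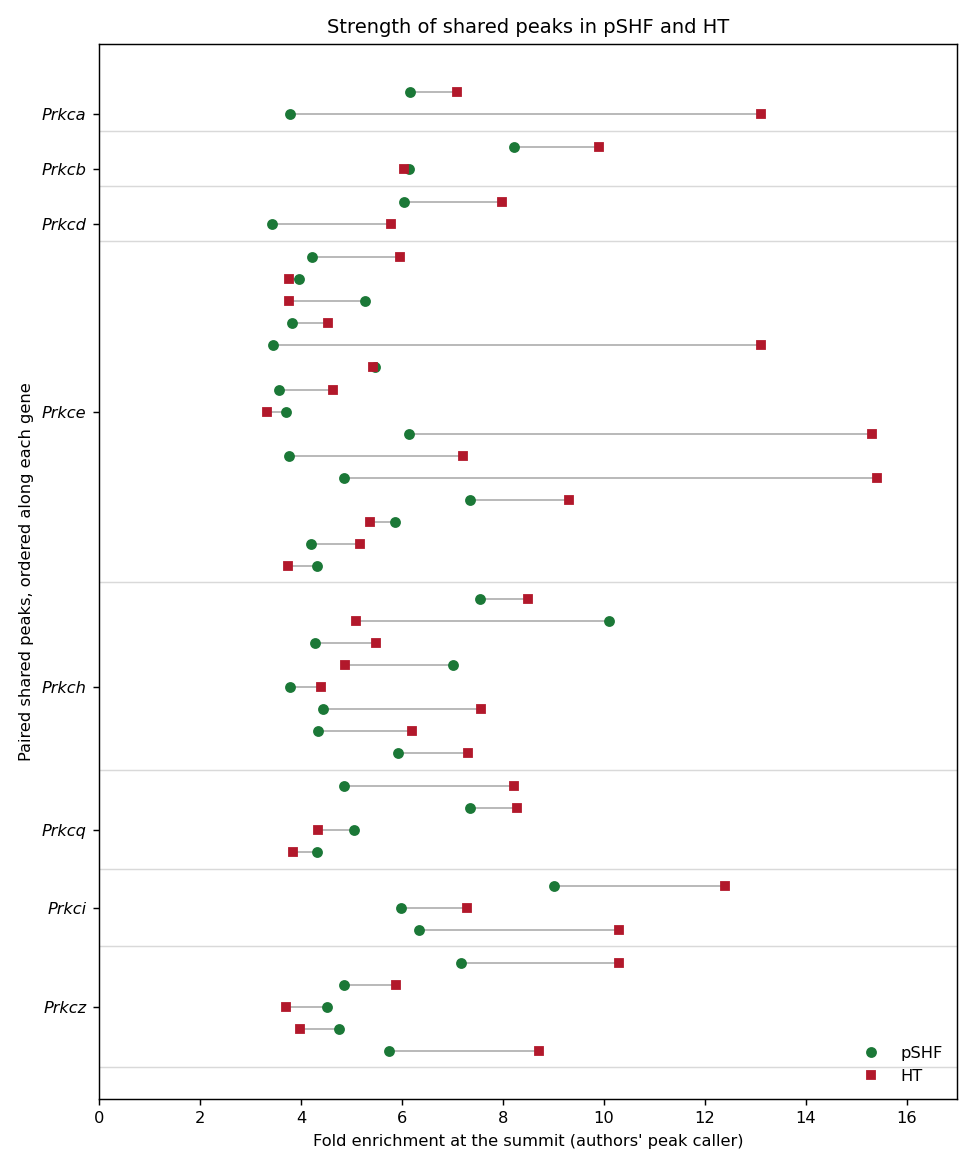
Fold enrichment of the 41 paired shared peaks in pSHF and HT, with the genes marked. The 4 pairs whose counting intervals do not overlap, 1 of *Prkca* and 3 of *Prkce*, have folds of 3.45 to 6.13 in pSHF and 13.1 to 15.4 in HT.

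Genes around protein kinase C in its pathway were counted in the same way. Of 49 such genes, 40 had a restricted peak, and 11 of these (27.5%) had more in pSHF, 23 (57.5%) more in HT and 6 equal numbers, close to the background of 29.5% and 57.9%. The whole list had 62 pSHF-restricted and 94 HT-restricted peaks, a pSHF share of 39.7%, beside 39.3% over all genes. The 12 genes of phospholipases C, which make diacylglycerol, had 19 pSHF-restricted and 21 HT-restricted peaks. The diacylglycerol kinases that remove it had 13 and 22 over 10 genes. The genes that prime or dephosphorylate the kinases had 3 and 9 over 5, scaffolds and partners 9 and 18 over 7, substrates and related kinases 11 and 15 over 9, and other diacylglycerol receptors 7 and 9 over 6. The largest excess toward pSHF was at the phospholipase gene *Plcb1*, with 10 pSHF-restricted and 2 HT-restricted peaks. *Dgkg* (5 and 3) and the scaffold gene *Wwc1* (3 and 1) each had an excess of 2. Toward HT the largest were the phospholipase gene *Plcb4* (4 and 13) and the polarity scaffold *Pard3* (3 and 12), then, tied, *Dgki* (3 and 7) and *Marcks*, a classical substrate (0 and 4).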

How the data were processed

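ATAC-seq was made from 3 samples of pSHF and 3 of HT. The submitters' processing notes name MACS2 2.1.1, Picard, Bowtie2 2.3.2 and SAMtools 1.5, and build mm10. What each did, and whether samples were pooled before calling, is not stated there. The deposited lists hold, for each summit, a score, a fold enrichment (a ratio), a −log10 p-value and a −log10 q-value. In pSHF no deposited −log10 q lay below 1.3013, and in HT none lay below 1.30685.

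The lists had 58887 pSHF and 60223 HT lines. Lines of equal interval were merged, keeping the summit of highest fold. Peaks went to the nearest RefSeq protein-coding gene body (GRCm38.p6, whose coordinates are those of mm10), and ties went to the gene whose end lay nearest the summit. A nearest gene marks position only. Pileup was solved from fold, taken as (pileup + 1)/(background + 1), and the Poisson p, and 100% of summits matched within 0.01 in log10 p. Read totals are unknown. Shared peaks were paired where each was the other's best overlap. For each gene the strongest restricted and shared peaks and the peak at the start were named, and for the pathway list the 3 largest excesses each way with ties, of which 1 is not reported here. Python 3.11.15, pandas 2.3.3 and SciPy 1.17.1 were used, and the counting was checked on simulated peaks. No genome was used here, so motifs were searched in RefSeq promoters and not in peaks. The members and lists were chosen with earlier results of these data known.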

Additional observations from a re-analysis of the deposited data

How the results depend on the processing

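The excess of HT-restricted peaks at *Prkca* and *Prkce* kept its direction under all 9 alternatives of threshold, overlap, gene assignment, distance and merging, with pSHF-restricted minus HT-restricted counts of −15 to −6 and −15 to −2. The −2 arose when peaks went to the nearest gene end, which gives peaks deep inside a long gene to its neighbours. At *Prkcz* the count went the other way, to 1, when restricted peaks below the median fold of their list were left out, and at *Prkch* it was −3 with both lists limited to a −log10 q of 5 or more. Requiring a 50% reciprocal overlap turned more peaks into restricted ones, 59.7% of pSHF and 71.6% of HT family peaks, and put the pSHF share of restricted peaks at 37.0%. With both lists limited to a −log10 q of 5 or more, 68.6% of HT family peaks were restricted. Leaving out *Prkca* and *Prkce*, an alternative chosen after seeing the data, gave 38.5% of HT peaks restricted and a pSHF share of 42.3%. The other 35 family-level and 69 gene-level values stayed within the counting interval of the main value, with 1 judged otherwise. That was the median log2 ratio of shared pairs, −0.30 from pileup beside −0.29 from fold. It was judged by its sign and by the spread over pairs.

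No paired analysis was possible because each tissue has 1 list without values per replicate, and leaving out a replicate was not run. At these depths a summit at the genome background needed a pileup of 5 in either list, and the lowest pileup of a restricted family peak was 5 in pSHF and 6 in HT. How far the replicates of a tissue differ is unknown. Strand was not known for *Prkce* and *Prkch*.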

Other observations

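The phospholipase C genes *Plcb1* and *Plcb4*, whose products make the diacylglycerol that activates most protein kinase C isoforms, are neighbours on chromosome 2, separated by 183 kb (chr2:134786164-135475258 and chr2:135658603-136014602), and their restricted peaks leaned opposite ways. *Plcb1* had 10 pSHF-restricted peaks, all inside the gene, with folds of 3.23 to 9.33, against 2 HT-restricted ones with folds of 3.27 and 4.81. *Plcb4* had 4 pSHF-restricted peaks with folds of 3.23 to 7.20, against 13 HT-restricted ones with folds of 3.81 to 12.6, all 17 inside the gene. These genes were picked after their counts were seen, and the difference between them was not tested.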
